A study of Mus musculus with 18 samples.

Results

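The Ikaros family consists of Ikzf1 (Ikaros), Ikzf2 (Helios), Ikzf3 (Aiolos), Ikzf4 (Eos) and Ikzf5 (Pegasus). Its members were taken here as the 5 genes with everything within 5 kb of each gene body. Methylation was measured by whole-genome bisulfite sequencing (WGBS), in which unmethylated cytosines are converted and methylated ones are kept. Splenic CD11b+ cells, which are mostly myeloid, and CD4+ T cells came from Dnmt3a+/+ mice (WT) and from Dnmt3a R878H/+ mice, which the labels write as Dnmt3aR878/+. There were 4 mice per genotype and cell type, young adult C57BL/6 animals with the sexes pooled. The R878H allele was switched on by Vav1-iCre in hematopoietic cells, so the mutation was not restricted to either cell type, and per the paper its control animals lacked either Cre or the floxed mutant allele. The CD11b+ cells of R878H/+ mice have 6 entries for 4 mice, since replicates 3 and 4 were entered more than once. Of 411770 regions listed for CD11b+ cells the family held 48 with more than 10 CpG cytosines and 67 with 10, the fewest listed. Of 553467 listed for CD4+ cells it held 198.

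Members of the family are zinc-finger transcription factors. A zinc-finger block near the N-terminus binds DNA, and a second block at the C-terminus lets members pair with each other. They recruit the NuRD, Sin3, CtBP and other corepressors, and they are known as regulators of lymphocyte development. Ikaros acts throughout blood formation, Aiolos mainly in B and T lymphocytes, Helios and Eos in regulatory T cells, and Pegasus is the most distant relative. DNMT3A adds methyl groups to unmethylated CpGs, and the mouse R878H allele corresponds to the most frequent DNMT3A mutation of human clonal hematopoiesis.

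Each region carries 1 mean methylation level per genotype, in percent, and no value for a single mouse. A mean therefore has no error here, its depth is unknown, and no difference could be compared with the spread between mice. A differentially methylated region (DMR) is a region with more than 10 CpG cytosines, a difference above 20 percentage points and a metilene q-value below 0.05. That q-value comes from the CpG values of the region and not from a test across mice. Cytosines of both strands were counted separately. The tables do not name their groups, so every direction rests on reading the first group as WT. The sample numbers in the titles form 2 runs, and all 4 R878H/+ CD4+ samples lie in the later run, with 1 of the 4 WT CD4+ samples. The repeat entries of CD11b+ R878H/+ replicates 3 and 4 are also in the later run, while all other CD11b+ entries, those of WT mice included, are in the earlier one. What that numbering stands for is not given in the sources used here, and its part in the differences of either cell type was not tested.

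The cell types were checked on the methylation of marker genes in WT mice. Of 12 T cell genes 11 were less methylated in CD4+ than in CD11b+ cells, with a median difference of -11.4 points. Cd4 itself was the exception, at 6.12 points more. Of 12 myeloid genes 10 were more methylated in CD4+ cells, with a median of 13.4 points, the exceptions being Itgam, which encodes CD11b, and Tyrobp. Over all genes the median was 2.01 points. Of 7 B cell genes 5 were more methylated in CD4+ cells. Cd79a, a B cell receptor subunit, was at 20.9% in CD11b+ and 79.4% in CD4+ cells, over 2 regions in each. B cells in the CD11b+ selection were not measured otherwise.

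Methylation of the family was mostly lower in R878H/+ mice in both cell types, and 4 DMRs fell in it. In CD11b+ cells 94 regions, or 81.7%, were lower and 21 were higher, against 93.4% lower among all listed regions. In CD4+ cells 185 of 198, or 93.4%, were lower, against 95.5%. The median family region lost 7.00 points in CD11b+ and 9.64 in CD4+ cells, while over all listed regions the median was 6.55 and 6.85. Of the family regions with more than 10 CpG cytosines, 1 of 48 was a hypomethylated DMR in CD11b+ cells, which is 2.08%, and the share of all such regions was 1.38%. In CD4+ cells 3 of 101 were, which is 2.97%, against 1.49% of all. With so few DMRs these shares lie near the background. Without the q-value threshold a loss above 20 points was seen in 7 family regions of each cell type, which is 14.6% and 6.93%, beside 7.75% and 6.89% of all. Of these 7, 6 in CD11b+ and 4 in CD4+ cells were Ikzf2 regions. No family region was a hypermethylated DMR in either cell type, and 0.0302% of all regions in CD11b+ and 0.00121% in CD4+ cells were. Among protein-coding genes, 8.88% had a hypomethylated DMR in CD11b+ and 11.8% in CD4+ cells. In the family that held for Ikzf1 in CD11b+ cells and for Ikzf2 and Ikzf3 in CD4+ cells.

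**Figure D1:**
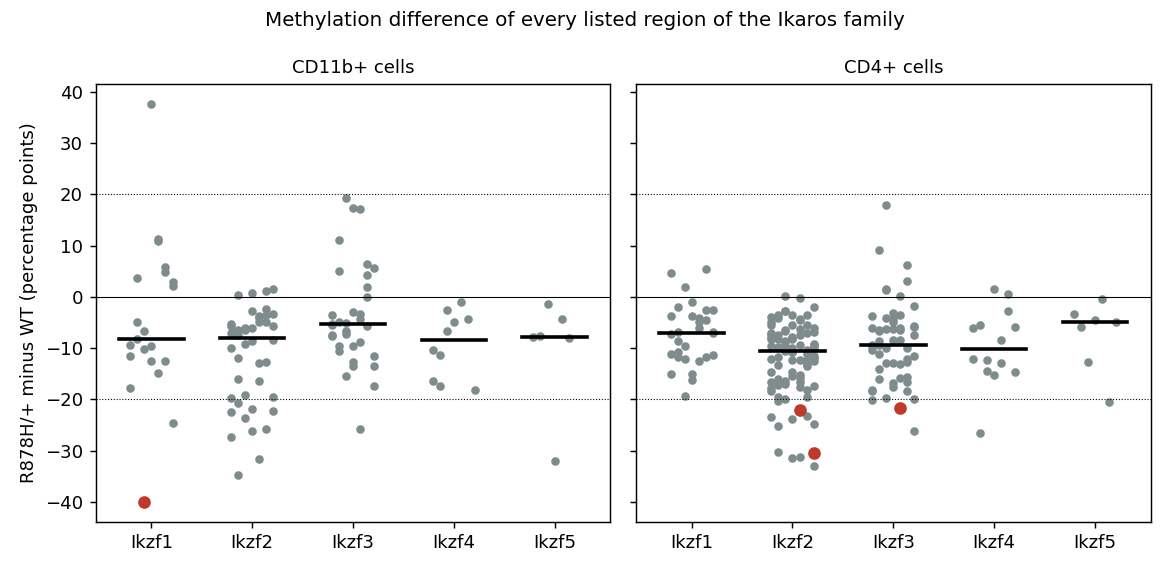
Difference in methylation between R878H/+ and WT mice (percentage points) for every listed region of the 5 genes, in CD11b+ cells (left) and CD4+ cells (right). Each point is 1 region, black bars are medians, red points are DMRs and dotted lines mark 20 points; most points lie below 0, and the highest point is an Ikzf1 region of CD11b+ cells at 37.7.

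Averaged over the listed regions of a gene with each region weighted by its CpG cytosines, every member was lower in R878H/+ than in WT mice in both cell types. Ikzf1 was the least methylated member in each group apart from Ikzf4 in R878H/+ CD11b+ cells. It was at 70.6% in WT and 64.6% in R878H/+ CD11b+ cells, while its CD4+ levels were 59.4% and 52.0%. Ikzf2 went the other way between cell types, from 77.0% in WT CD11b+ to 84.7% in WT CD4+ cells, and stood at 65.0% and 72.2% in R878H/+ mice. Ikzf3 was at 80.5% in WT CD11b+ and 73.8% in WT CD4+ cells, and at 76.7% and 64.4% in R878H/+ mice. These means average different regions in each cell type. Over the 8 Ikzf3 pairs of regions that cover at least 50% of each other, the median WT difference (CD4+ minus CD11b+) was 1.27 points, with CD4+ cells higher in 5, so the lower CD4+ mean was not seen there. Ikzf4 was at 72.9% and 79.5% in WT CD11b+ and CD4+ cells, and at 63.4% and 69.5% in R878H/+ mice. Ikzf5, the most methylated member in CD11b+ cells, was at 88.0% in WT and 78.0% in R878H/+ mice, and in CD4+ cells at 79.2% and 70.7%. The CD4+ mean of Ikzf5 includes a region at 1.45% in WT cells with no listed CD11b+ counterpart, and in both of its pairs with at least 50% overlap WT CD4+ cells were the higher. At this overlap Ikzf1 had 5 pairs, with a median WT difference of -1.60 points and CD4+ cells higher in 2. Ikzf2 had 24 pairs, with a median of 1.45 points and CD4+ cells higher in 15. Ikzf4 had 4 pairs, with a median of -0.879 points and CD4+ cells higher in 2. The gaps between the weighted means of these members were thus larger than in their pairs, and at Ikzf4 the direction differed. Which neighbours in this order differ beyond the spread between mice cannot be said from group means.

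Ikzf1 (ENSMUSG00000018654.17, chr11:11685003-11772926, mm10, + strand, 87.9 kb) had 21 listed regions in CD11b+ and 30 in CD4+ cells. Its DMR in CD11b+ cells, chr11:11684836-11685193, lay across the first transcription start, with 167 bp upstream and 191 bp in the first exon, which is 5' untranslated. WT cells were at 49.3% and R878H/+ cells at 9.28%, a loss of 40.0 points over 23 CpG cytosines (metilene q = 4.5e-10). No other family region differed by as much in either direction. The upstream part of the DMR holds 3 of its 16 CpGs and is shown because this DMR lies at a promoter; capitals mark CpGs, on the + strand of mm10 from 11684836 to 11685002.

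Ikzf1 DMR, upstream part: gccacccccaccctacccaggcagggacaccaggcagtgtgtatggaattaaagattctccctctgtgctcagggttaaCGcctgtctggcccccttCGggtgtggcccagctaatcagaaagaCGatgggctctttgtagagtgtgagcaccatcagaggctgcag

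The CD4+ table drew the promoter with other bounds. There chr11:11684231-11685060, which reaches the same start, was at 36.3% in WT and 27.6% in R878H/+ cells over 27 CpG cytosines. The loss of 8.70 points was smaller than that of the CD11b+ DMR, but the DMR covers only 27.1% of this CD4+ region. Another CD11b+ region, chr11:11684110-11684614, covers 46.3% of it and went from 85.1% to 76.8%, a loss of 8.27 points. The regions were not tested against each other.

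Less than 1 kb downstream of this loss, CD11b+ cells showed the largest gain of the family. The region chr11:11686171-11686457 holds 27 CpGs at a GC content of 67.2%, lies in exons of Ikzf1 and spans the start of another transcript. It was at 1.04% in WT and 38.8% in R878H/+ cells, a gain of 37.7 points over 14 CpG cytosines. Its metilene q-value was 1.0, so it was not a DMR. With both strands counted, these 14 are a minority of the cytosines in the 27 CpGs of this region. In the first intron behind it, chr11:11690790-11691370 was at 24.8% in WT and 35.6% in R878H/+ CD11b+ cells. No CD4+ region was listed over the region of the largest gain, but CD4+ cells were nearly unmethylated behind it. All 7 of their listed regions between chr11:11686726 and chr11:11691985 were between 0.225% and 5.90% in WT and between 0.925% and 7.80% in R878H/+ cells.

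**Figure D2:**
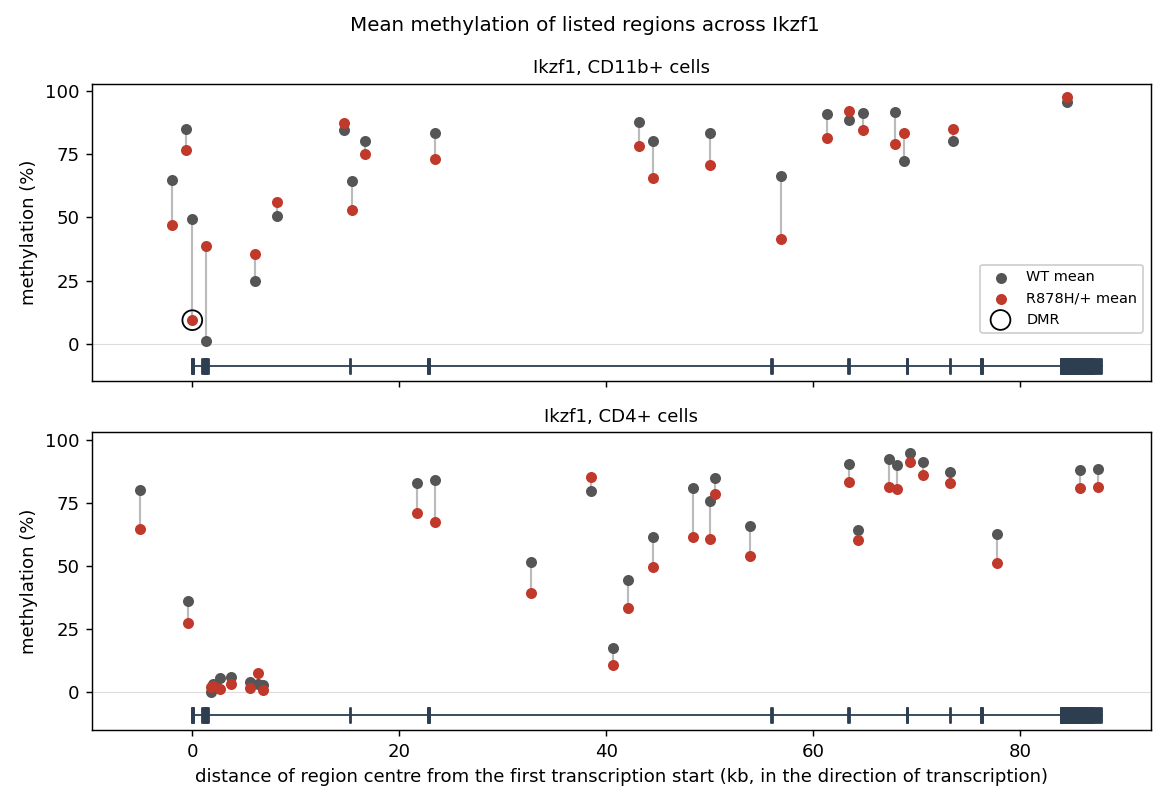
Mean methylation (%) of each listed region of Ikzf1 against the distance of its centre from the first transcription start (kb), in CD11b+ cells (top) and CD4+ cells (bottom). Grey points are WT, red points R878H/+, the ringed point is the DMR and dark boxes are exons; at the start the CD11b+ pair drops from 49.3% to 9.28%, and the next pair climbs from 1.04% to 38.8%.

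Elsewhere in Ikzf1 both directions were found in CD11b+ cells. The loss second in size was in an intron at chr11:11741866-11741933, from 66.3% to 41.6%, over only 68 bp. At chr11:11753547-11753948, also intronic, R878H/+ cells were higher, at 83.3% against 72.2%. Altogether 8 of 21 Ikzf1 regions, or 38.1%, were higher in R878H/+ CD11b+ cells, against 6.56% of all listed regions. Of 3703 genes with at least 20 listed regions, 12 had a share at least as high, Ikzf1 included, and 9 of these were clustered protocadherin genes that overlap each other. The remaining ones, Prdm8 with 9 of 20 regions and Bcl11b with 19 of 43, are named because of their values. In CD4+ cells 3 of 30 Ikzf1 regions were higher, against 4.53% of all. The largest loss of Ikzf1 in CD4+ cells, at chr11:11733175-11733613 in an intron, ran from 81.0% to 61.5%.

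The same count was made for marker genes in CD11b+ cells. In the 12 T cell genes 35 regions, or 16.9%, were higher in R878H/+ mice and 172 lower, beside 6.56% higher among all listed regions. Bcl11b, a T cell transcription factor already named for its share, held 19 of these 35, so the list share rests largely on this gene. At least 1 region was higher in 8 of the 12 genes. Of 110 regions in the 12 myeloid genes 4, or 3.64%, were higher, and of 243 in the 7 B cell genes 15, or 6.17%. A list of 12 NK cell genes, added after the values had been seen, had 61 listed regions in 8 genes, and 18 of them, or 29.5%, were higher. The methylation of these genes does not say how many such cells were present, and its part in the Ikzf1 and Ikzf3 gains was not tested. In CD4+ cells 39 of 283 regions of T cell genes, or 13.8%, and 5 of 85 regions of NK cell genes, or 5.88%, were higher.

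Ikzf2 (ENSMUSG00000025997.13, chr1:69531214-69687245, - strand, 156.0 kb) had 44 regions in CD11b+ and 92 in CD4+ cells, more than any other member. In CD4+ cells 91 of the 92 were lower in R878H/+ mice, and the median loss was 10.6 points. Of 4924 genes with at least 20 regions, 222 had a median loss at least this large. In CD11b+ cells 40 of 44 were lower, with a median loss of 8.00 points. There 10 losses passed 20 points, beside 28833 of all 411770 listed regions, though none was a DMR. Among regions with more than 10 CpG cytosines these were 6 of 16, or 37.5%, beside 7.75% of all.

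The 2 DMRs of Ikzf2 in CD4+ cells lay about 3 kb apart, near the 3' end of the gene, on either side of a coding exon. In the coding transcript with the longest span, which has 8 exons, the one at chr1:69549079-69549600 is in intron 5 and the one at chr1:69545060-69545888 in intron 6. The first was at 87.6% in WT and 57.2% in R878H/+ cells, over 14 CpG cytosines (metilene q = 1.1e-04). The second was at 85.5% and 63.4%, over 20 CpG cytosines (metilene q = 3.2e-05), and its end overlaps 26 bp of the antisense gene Gm29114. Between them, chr1:69548085-69548998 contains the coding exon 6 and fell just outside the threshold. It was at 78.8% and 59.4%, a loss of 19.5 points with a metilene q of 4.5e-04. The 3 neighbours therefore lost between 19.5 and 30.4 points, although only the outer pair count as DMRs. No CD11b+ region was listed over either DMR, so their change in CD11b+ cells is not known. The CD11b+ region chr1:69548085-69548464, between them and with 10 CpG cytosines, was at 93.2% in WT and 89.5% in R878H/+ mice.

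The 300 bases with the most CpGs outside exons are shown for each, to show how sparse the CpGs of these intronic DMRs are; capitals mark CpGs, on the + strand of mm10. They cover chr1:69545219-69545518 and chr1:69549079-69549378.

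Ikzf2 DMR, intron 6: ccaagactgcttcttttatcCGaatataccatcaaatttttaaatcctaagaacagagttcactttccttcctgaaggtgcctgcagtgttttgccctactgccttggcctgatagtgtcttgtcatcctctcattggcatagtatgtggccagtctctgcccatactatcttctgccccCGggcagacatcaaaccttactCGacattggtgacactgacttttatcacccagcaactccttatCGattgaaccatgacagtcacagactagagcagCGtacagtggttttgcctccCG

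Ikzf2 DMR, intron 5: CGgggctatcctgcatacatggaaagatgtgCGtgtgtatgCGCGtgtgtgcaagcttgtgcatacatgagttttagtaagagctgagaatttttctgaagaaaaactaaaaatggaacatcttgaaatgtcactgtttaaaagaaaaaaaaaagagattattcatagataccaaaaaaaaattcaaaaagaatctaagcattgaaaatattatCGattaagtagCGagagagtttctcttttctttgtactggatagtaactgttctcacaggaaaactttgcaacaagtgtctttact

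Each stretch holds 6 CpGs. The whole DMRs have 1.45 and 1.34 CpGs per 100 bp, beside a median of 1.58 over all regions listed for CD4+ cells and 4.47 in the Ikzf1 DMR. Their GC content was 43.4% and 36.2%, and that of the Ikzf1 DMR 60.3%.

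**Figure D3:**
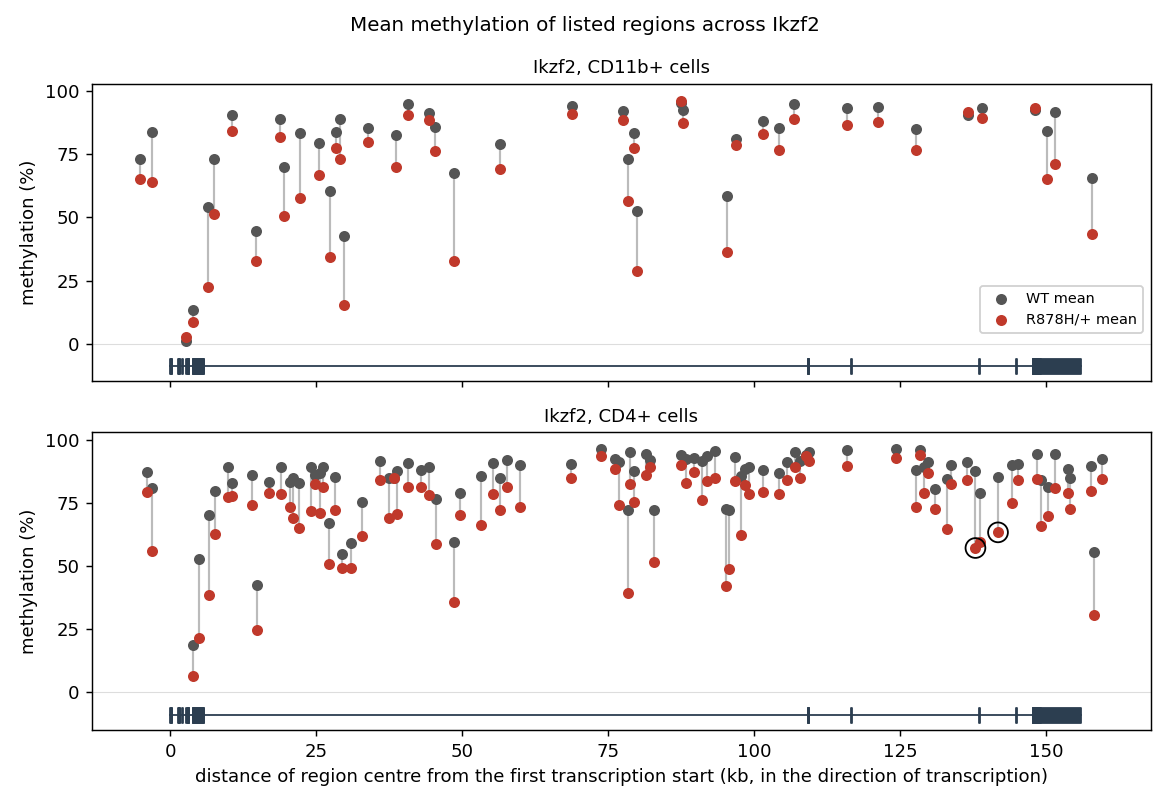
Mean methylation (%) of each listed region of Ikzf2 against the distance of its centre from the first transcription start (kb, in the direction of transcription), in CD11b+ cells (top) and CD4+ cells (bottom). Grey points are WT, red points R878H/+, ringed points are DMRs and dark boxes are exons; in CD4+ cells 91 of 92 red points lie below their grey point, and both DMRs lie near the 3' end.

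The largest loss of Ikzf2 in each cell type was in its longest intron, intron 3, where the overlapping region of the other cell type was also lower. In CD4+ cells the largest was at chr1:69608617-69609048, from 72.4% to 39.4%, and the overlapping CD11b+ region went from 73.0% to 56.5%. In CD11b+ cells the largest was at chr1:69638354-69638854, from 67.5% to 32.8%, and the overlapping CD4+ region went from 59.7% to 35.9%. Neither had more than 10 CpG cytosines in the cell type where it was largest. Other large losses of this intron were less alike. At chr1:69657274-69657714 CD11b+ cells went from 42.6% to 15.2%, and the overlapping CD4+ region from 54.8% to 49.3%. At the 5' end of the intron, about 3 kb inside a transcription start, CD11b+ cells went from 54.0% to 22.3% at chr1:69680500-69680978 (metilene q = 0.073). CD4+ cells went from 70.2% to 38.7% at chr1:69680350-69680882 (metilene q = 0.052). This CD4+ region had 14 CpG cytosines and missed a DMR call by its q-value alone, whereas the CD11b+ region had 10 and failed on both counts. Of the pairs of regions that cover at least 50% of each other, this pair had the largest loss common to both cell types, 31.7 and 31.5 points. It is shown for that reason, from chr1:69680500 to chr1:69680799.

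Ikzf2, intron 3, both cell types: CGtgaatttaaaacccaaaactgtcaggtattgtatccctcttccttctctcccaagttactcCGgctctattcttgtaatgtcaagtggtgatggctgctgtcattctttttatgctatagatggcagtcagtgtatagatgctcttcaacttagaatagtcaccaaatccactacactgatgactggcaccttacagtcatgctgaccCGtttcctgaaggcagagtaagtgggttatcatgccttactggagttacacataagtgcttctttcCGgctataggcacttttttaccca

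Closer to the starts the levels were low. The CD11b+ region nearest to a start, chr1:69684431-69684825, was at 1.02% in WT and 2.50% in R878H/+ cells. The nearest in CD4+ cells, chr1:69683004-69683676, was at 18.9% and 6.61%, and its CD11b+ counterpart at 13.3% and 8.50%. Upstream of the gene, chr1:69690276-69690676 was listed with identical bounds in both tables. It went from 83.8% to 64.0% in CD11b+ and from 81.0% to 56.0% in CD4+ cells.

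Ikzf3 (ENSMUSG00000018168.8, chr11:98464902-98546031, - strand, 81.1 kb) had 34 regions in CD11b+ and 55 in CD4+ cells. Its DMR in CD4+ cells, chr11:98512299-98512643, is in intron 3 of the coding transcript with 8 exons, 23279 bp from the nearest annotated start. It was at 85.6% in WT and 63.9% in R878H/+ cells, a loss of 21.7 points over 18 CpG cytosines (metilene q = 0.038). No CD11b+ region was listed over this DMR. It is the DMR closest to both limits, and a stretch with 8 of its 10 CpGs, chr11:98512322-98512621, is shown.

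Ikzf3 DMR, intron 3: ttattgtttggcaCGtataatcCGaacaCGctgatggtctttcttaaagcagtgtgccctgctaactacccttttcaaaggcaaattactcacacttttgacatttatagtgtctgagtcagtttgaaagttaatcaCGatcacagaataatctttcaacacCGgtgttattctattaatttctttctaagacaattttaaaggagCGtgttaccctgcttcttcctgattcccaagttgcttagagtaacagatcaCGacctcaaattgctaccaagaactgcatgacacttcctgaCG

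Just outside the threshold was chr11:98475169-98476000, in intron 7, at 90.9% in WT and 71.2% in R878H/+ CD4+ cells. It lost 19.8 points (metilene q = 0.012). The largest loss in CD4+ cells, at chr11:98480842-98481447, ran from 79.5% to 53.3%, and the largest in CD11b+ cells, at chr11:98497713-98497953, from 69.0% to 43.1%. Both were intronic with a metilene q of 1.0.

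Around an internal start of Ikzf3, at chr11:98489020, several regions of both cell types were listed. In CD4+ cells the region ending 2 bp from this start, chr11:98488636-98489018, was at 84.3% in WT and 66.0% in R878H/+ mice, a loss of 18.4 points. The CD11b+ region that covers most of it, chr11:98488308-98489009, was at 93.1% and 89.7%, a loss of 3.40 points. The start itself lay in a CD11b+ region of 67 bp, chr11:98489010-98489076, which was at 90.7% and 92.7%. On either side the losses of the cell types were closer. At chr11:98489076-98489327 CD4+ cells lost 19.9 points, from 79.4% to 59.5%, and the overlapping CD11b+ region chr11:98489140-98489584 lost 13.5, from 94.1% to 80.6%. At chr11:98488042-98488284 CD4+ cells lost 15.9 points, from 35.3% to 19.4%, and CD11b+ cells lost 12.7 over the longer chr11:98487578-98488284, from 52.2% to 39.5%. At the first start of Ikzf3, CD4+ cells had a region at 23.4% in WT and 12.2% in R878H/+ mice and one at 4.10% and 5.70%.

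Ikzf3 also had gains in CD11b+ cells, at 9 of 34 regions, or 26.5%, against 6.56% of all listed regions. Of the 3703 genes with at least 20 regions, 23 had a share at least as high, Ikzf3 included, and 11 of these were clustered protocadherin genes. The largest gain, at chr11:98493426-98493814 in an intron, was from 51.6% to 70.9%. CD4+ cells were also higher in R878H/+ mice at the overlapping chr11:98493565-98494068, at 26.8% against 17.6%. A smaller CD11b+ gain at chr11:98523227-98523583, from 82.6% to 87.7%, overlapped a CD4+ region at 75.7% and 75.9% and another that was lower in R878H/+ mice. The CD11b+ region chr11:98476915-98477111, which includes coding exon 7, was at 32.3% in WT and 49.4% in R878H/+ cells, while CD4+ cells went from 55.4% to 38.5% over chr11:98476096-98477259. In CD4+ cells 7 of 55 Ikzf3 regions, or 12.7%, were higher, against 4.53% of all. The largest gain there was from 48.1% to 66.0% at chr11:98533764-98533913.

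**Figure D4:**
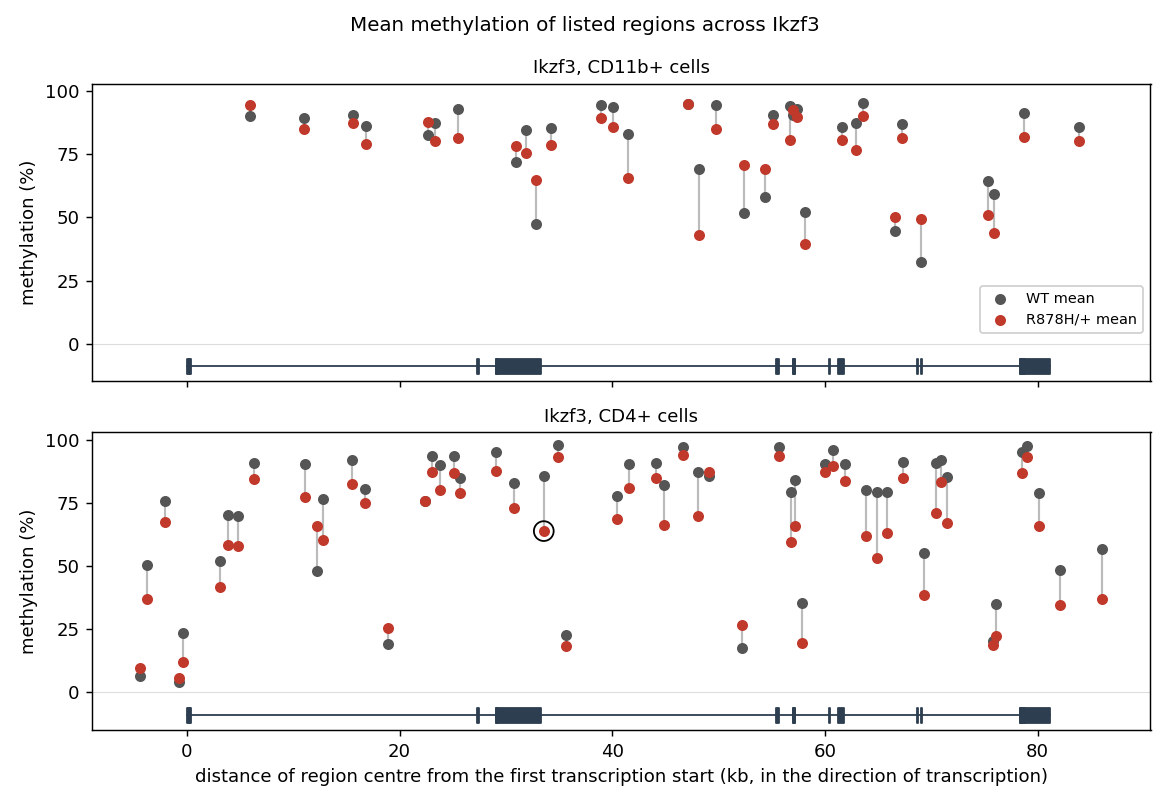
Mean methylation (%) of each listed region of Ikzf3 against the distance of its centre from the first transcription start (kb, in the direction of transcription), in CD11b+ cells (top) and CD4+ cells (bottom). Grey points are WT, red points R878H/+, the ringed point is the DMR and dark boxes are exons; red points lie above grey ones in 9 of 34 CD11b+ and 7 of 55 CD4+ regions.

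Ikzf4 (ENSMUSG00000002578.17, chr10:128630843-128645991, - strand, 15.1 kb) had no DMR. All 10 of its CD11b+ regions and 12 of 14 CD4+ regions were lower in R878H/+ mice, with median losses of 8.50 and 10.3 points. The largest loss in CD4+ cells lay downstream of the gene, at chr10:128627788-128628386, from 84.5% to 58.0%, and CD11b+ cells went from 72.5% to 56.0% at nearly the same bounds. In CD11b+ cells the largest was intronic, at chr10:128636999-128637681, from 31.1% to 13.0%. CD4+ cells were close to this, at 28.8% and 14.1%, over chr10:128637291-128637760. Nearest to a start, CD11b+ cells were at 8.88% in WT and 2.25% in R878H/+ mice at chr10:128646189-128646603. CD4+ cells were at 89.1% and 73.8% at chr10:128644208-128645066, across the start of a shorter transcript.

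Ikzf5 (ENSMUSG00000040167.16, chr7:131388652-131410521, - strand, 21.9 kb) had 6 regions in CD11b+ and 7 in CD4+ cells, each lower in R878H/+ mice, and no DMR. Its window overlaps gene models of Fgfr2, Pstk and Acadsb, so its regions cannot be assigned to Ikzf5 alone. The largest loss lay upstream of the gene in both cell types and inside the Acadsb gene model. CD11b+ cells went from 69.6% to 37.5% at chr7:131411597-131411896, and CD4+ cells from 69.1% to 48.5% over the longer chr7:131411179-131412223. The CD11b+ region had 10 CpG cytosines, and both had a metilene q of 1.0. Nearest to a start of Ikzf5, CD4+ cells were at 1.45% in WT and 0.950% in R878H/+ mice at chr7:131409479-131409860. The CD11b+ region is shown because it is the largest loss of a member that has no DMR.

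Ikzf5, upstream, CD11b+ cells: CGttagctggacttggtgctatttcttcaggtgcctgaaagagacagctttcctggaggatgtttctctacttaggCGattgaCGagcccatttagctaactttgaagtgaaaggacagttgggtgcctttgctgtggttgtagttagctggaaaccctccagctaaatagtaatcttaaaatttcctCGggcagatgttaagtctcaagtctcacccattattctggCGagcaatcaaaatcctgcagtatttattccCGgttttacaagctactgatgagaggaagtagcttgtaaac

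The letters TGGGA, the core bound by Ikaros family zinc fingers, and TCCCA, which is the same on the other strand, were counted in the sequences of the DMRs. There were 2 in the Ikzf1 DMR, 1 in the Ikzf2 DMR of intron 6, none in that of intron 5 and 1 in the Ikzf3 DMR. Of all listed regions within 10% of the same length, 69.3%, 92.2%, 81.1% and 66.8% hold at least 1. The upstream Ikzf5 region has none, beside 61.9% of regions of its length. A match describes these letters only.

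By an overlap of at least 1 bp, 83 CD11b+ regions of the family (72.2%) and 89 CD4+ regions (44.9%) met one of the other cell type, in 100 pairs. Over all listed regions the shares were 58.8% and 45.5%, and the CD4+ table lists more regions. With an overlap of at least 50% of each region they were 37.4% and 21.7% in the family, beside 33.2% and 24.7% of all. In 80 of the 100 pairs by 1 bp, some of which share only 1 bp, methylation was lower in R878H/+ mice in both cell types. In 14 it was higher in CD11b+ and lower in CD4+ cells, 7 of these at Ikzf3, 4 at Ikzf2 and 3 at Ikzf1. In 3 it was the reverse. The median loss over these 100 pairs was 8.57 points in CD11b+ and 10.3 in CD4+ cells. By the stricter overlap 43 pairs were left, and the loss was larger in CD4+ cells in 26 and in CD11b+ cells in 17. WT methylation was higher in CD4+ cells in 26 of these 43 pairs. The WT difference (CD4+ minus CD11b+) ran from -24.0 points, at Ikzf3 in an intron (chr11:98469938-98470267, 59.2% in CD11b+ and 35.2% in CD4+ cells), to 23.9 points downstream of Ikzf2 (chr1:69529070-69529742, 65.8% and 89.7%). At Ikzf1 it went down to -18.9 points, at chr11:11729031-11729910, with 80.3% and 61.4%.

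**Figure D5:**
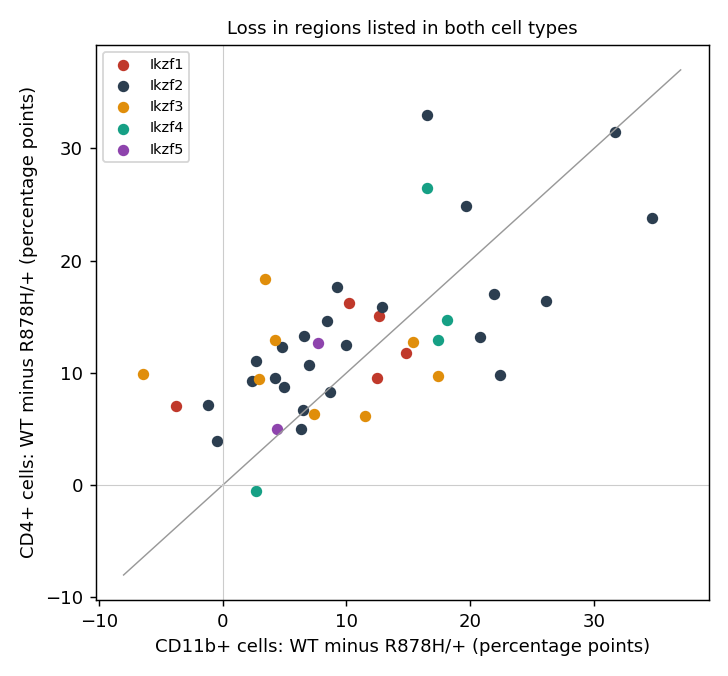
Loss of methylation (WT minus R878H/+, percentage points) in CD11b+ cells (horizontal) against CD4+ cells (vertical), for the 43 pairs of regions of which each covers at least 50% of the other. Points are coloured by gene and the line marks equal loss; 26 points lie above the line, and the Ikzf2 point near 31.7 and 31.5 is far out for both cell types.

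Losses differed with the starting level. Where WT cells were between 40% and 80%, the median loss of family regions was 16.0 points in CD11b+ and 14.7 in CD4+ cells, beside 13.7 and 13.2 for all listed regions. Where WT cells were at 80% or more, it was 6.25 and 8.75 points, beside 5.65 and 6.11. Below 40% the family had 7 regions in CD11b+ cells, 4 of them higher in R878H/+ mice, with a median loss of -1.48 points, beside 6.53 for all. In CD4+ cells it had 23, 6 of them higher, with a median loss of 2.67 points, beside 6.33. Introns held 66.1% of the family regions in CD11b+ and 68.2% in CD4+ cells, with median losses of 7.14 and 9.97 points. Regions within 1 kb of a start numbered 11 and 15, and 4 and 2 of them were higher in R878H/+ mice.

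Genes that work with the family or under it were described by lists, with the shares of protein-coding genes given above as background. Of corepressor genes with a region of more than 10 CpG cytosines, 2 of 21 had a hypomethylated DMR in CD11b+ cells, Chd3 and Ctbp2. That is 9.52%, beside 8.88% of protein-coding genes. In CD4+ cells 1 of 22, or 4.55%, did, Ctbp2 again, beside 11.8%. Ctbp2 encodes a corepressor that Ikaros binds. Its largest DMR was at chr7:133114419-133114826 in CD11b+ cells, from 82.0% to 30.1%, and at chr7:133114445-133114653 in CD4+ cells, from 86.6% to 41.1%. Of target and lineage genes, 4 of 21 (19.0%) had one in CD11b+ and 9 of 24 (37.5%) in CD4+ cells, beside the same 8.88% and 11.8%. The 4 with a DMR in both cell types were Gata3, a T cell transcription factor, Bcl6, a repressor needed in germinal-centre and follicular helper cells, Ebf1, a B cell factor, and Bcl2, which blocks apoptosis. Gata3 went from 65.0% to 21.3% at its largest DMR in CD11b+ cells and from 64.6% to 26.7% in CD4+ cells. Bcl6 went from 56.4% to 15.2% and from 46.1% to 15.7%. Ebf1 went from 56.6% to 27.2% and from 69.4% to 30.9%, out of 149 and 189 regions. Bcl2 went from 55.5% to 18.4% and from 68.1% to 36.8%. For each of these 4 genes the largest DMRs of the 2 cell types do not overlap, unlike those of Ctbp2. Some genes had further DMRs, which were not compared. In CD11b+ and CD4+ cells Gata3 had 4 and 2 in all, Ebf1 2 and 4, and Ctbp2 4 and 4. Whether the cell types differ in the sites of loss in these genes was therefore not tested. Genes with many regions have more chances of a DMR, and the counts were not adjusted for this. None of 6 genes of the CRBN ubiquitin ligase, through which drugs degrade IKZF1 and IKZF3 in human cells, had a DMR in either cell type.

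By the 4 weighted group means, the nearest of 13765 genes with at least 5 regions in each cell type were Wrap73, Aspdh and Duox2 for Ikzf1, at Euclidean distances of 1.65, 1.69 and 2.50 points. For Ikzf2 they were Sptlc2, Sdcbp and Cxcl9, at 0.886, 1.17 and 1.25 points. For Ikzf3 they were Taf5l, Gdf5 and Ldlrad2, at 2.72, 2.73 and 2.93 points. For Ikzf4 they were Gnptab, Nrg2 and Chrdl2, at 0.889, 0.895 and 1.30 points, and for Ikzf5 Immt, Tepp and Fads1, at 1.08, 1.13 and 1.22 points. With 4 values per gene, such likeness is a description of average levels only.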

How the data were processed

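WGBS of splenic CD11b+ and CD4+ cells of 4 WT and 4 Dnmt3a R878H/+ mice each was analysed from the 2 deposited metilene tables. Alignment by the authors used BISCUIT on mm10, and metilene then divided the genome into regions; versions and the minimum coverage are not given in the sources used here. Per the deposited values, each region has group means in percent, a count of CpG cytosines, p-values and a q-value, without a header. There are 0 columns of per-sample values, so no test across mice, error or depth could be had. Repeat entries of a mouse were counted once in the number of mice. How they entered the deposited group means and q-values is not given in the sources used here.

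Regions were joined to gene bodies extended by 5 kb, from GENCODE release 21, and coordinates are counted from 1. A promoter is the 1 kb on either side of a start. DMRs followed the study's criteria, and the q-values were used as the caller gave them. CpGs, GC content and motifs were counted in GRCm38. The procedures were tested on simulated data. The named genes were the 5 members, each DMR of a member, each member's region of largest loss and region nearest a start, list genes with a DMR in both cell types and the 3 nearest genes. Other regions and genes named, such as gains and regions just outside the threshold, were picked after their values were seen. Members and lists were chosen with earlier results of these data known. Protein sequences were not used here. Python 3.11.15, numpy 2.4.6, pandas 2.3.3 and matplotlib 3.10.9 were used.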

Additional observations from a re-analysis of the deposited data

How the results depend on the processing

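The number of hypomethylated DMRs depended on the thresholds. In CD11b+ cells the count of 1 became 7 without a q-value threshold. In CD4+ cells the count of 3 became 7 without a q-value threshold, 1 with a difference above 30 points, 6 with one above 10 points and 0 with more than 20 CpG cytosines. The Ikzf3 DMR of CD4+ cells was also lost with a q-value below 0.01, and both Ikzf2 DMRs and the Ikzf3 DMR had 20 CpG cytosines or fewer. The Ikzf1 DMR of CD11b+ cells kept its call under each of these settings. The share of family regions that overlap one of the other cell type fell from 72.2% to 37.4% in CD11b+ cells and from 44.9% to 21.7% in CD4+ cells with a reciprocal overlap of 50%. No median or weighted mean loss changed sign under the alternatives run. The settings do not recompute the difference of a single DMR, so that could not reverse. Weighting by CpG cytosines moved the loss of Ikzf2 in CD11b+ cells from 8.00 to 12.0 points and that of Ikzf5 in CD4+ cells from 4.99 to 8.46, and the gene body without flanks moved that of Ikzf5 in CD11b+ cells from 7.78 to 4.56. No paired analysis was possible because the tables hold group means and no value per replicate. For the same reason no replicate could be left out and no coverage minimum applied.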
